A study of Mus musculus with 22 samples.

Results

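The bodies of very long genes were examined in mouse testis by ChIP-seq, in which the DNA bound to a histone is pulled down with an antibody and sequenced. The members are the 50 kb windows of the autosomes that start at 13 Mb or later and lie wholly inside a protein-coding gene of at least 500 kb in the mm10 RefSeq annotation. There are 3161 such windows, which are 7.13% of the 44305 autosomal windows from 13 Mb on and part of 54520 windows genome-wide. They lie in 201 genes, with a median of 14 windows per gene and a range of 9 to 45. Of the 227 protein-coding genes of that length, 216 are autosomal, 11 lie on X, and 15 autosomal ones have no window from 13 Mb on. The rule itself uses gene length and position and no measured value, but it was proposed with earlier results of these data known.

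The study compared mice heterozygous for Robertsonian translocations, in which a pair of chromosomes is joined at the centromere, with mice of normal karyotype. γH2AX was measured at 4 weeks of age with the antibody clone JBW301, in 3 libraries each of 3Rb, 1Rb_P and 1Rb_M and in 1 library of B6, which has a different antibody supplier label and no replicate. The 3Rb mice are the F1 of B6.SPRET7MOLF12 and RBF/Dnj, with 3 translocations. The 1Rb_P mice are the F1 of C57BL/6J and CBy.RBF-Rb(8.12)5Bnr/J, the 1Rb_M mice are the F1 of CBy.RBF-Rb(8.12)5Bnr/J and B6.SPRET7MOLF12, both with 1 translocation joining 8 and 12, and B6 is C57BL/6J. H3.3 was measured at 6 weeks in 3 libraries each of 3Rb, 1Rb (the 1Rb_M cross) and Cg, the B6.SPRET7MOLF12 control. The 3 inputs came from 1Rb_M, Cg and B6, and none from 3Rb was used here. In RBF/Dnj, as background, 1 is joined with 3, 8 with 12 and 9 with 14. The crosses differ in parental strain as well as in translocations, and the effects of strain and of translocation cannot be told apart. In a tissue of many cell types, a smaller share of cells with a mark and less of the mark per cell cannot be told apart either.

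γH2AX is the histone H2AX phosphorylated at DNA double-strand breaks and, in meiotic prophase, over chromosomes that have not synapsed, above all X and Y. H3.3 is the histone variant that is deposited outside DNA replication, at promoters and in the bodies of transcribed genes, and on the unsynapsed sex chromosomes of spermatocytes. Many of the longest genes of the mouse code for adhesion molecules, receptors and scaffolds of neurons. The longest genes tend to lie in gene-poor DNA, and include genes of common fragile sites, where replication stress breaks chromosomes.

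The start of a very long gene is a small part of a body made of many windows, and a 50 kb window does not resolve it. The starts of 4 genes are shown because their genes carried changes described here, in both directions: Rims1, Nlgn1 and Dgkb with more γH2AX in 3Rb, and Slit3 with less. Each run is 300 bases, from 250 before to 50 after a RefSeq transcript start (GRCm38.p6), 5′ to 3′ on the gene's strand, with every CG dinucleotide in capitals.
Rims1, chr1:22806109-22806408, minus strand: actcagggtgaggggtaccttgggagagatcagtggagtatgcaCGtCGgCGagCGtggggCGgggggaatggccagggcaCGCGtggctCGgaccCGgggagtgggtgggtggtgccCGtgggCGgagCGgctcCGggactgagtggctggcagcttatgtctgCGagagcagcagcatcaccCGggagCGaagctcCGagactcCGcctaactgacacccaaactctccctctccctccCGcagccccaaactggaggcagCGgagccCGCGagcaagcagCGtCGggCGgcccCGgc
Nlgn1, chr3:26331860-26332159, minus strand: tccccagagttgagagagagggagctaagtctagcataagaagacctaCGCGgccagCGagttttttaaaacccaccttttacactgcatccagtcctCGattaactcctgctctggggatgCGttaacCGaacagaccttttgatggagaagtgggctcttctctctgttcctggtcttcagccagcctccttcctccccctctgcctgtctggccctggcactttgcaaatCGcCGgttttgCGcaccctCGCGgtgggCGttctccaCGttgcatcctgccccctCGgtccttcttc
Dgkb, chr12:37879924-37880223, plus strand: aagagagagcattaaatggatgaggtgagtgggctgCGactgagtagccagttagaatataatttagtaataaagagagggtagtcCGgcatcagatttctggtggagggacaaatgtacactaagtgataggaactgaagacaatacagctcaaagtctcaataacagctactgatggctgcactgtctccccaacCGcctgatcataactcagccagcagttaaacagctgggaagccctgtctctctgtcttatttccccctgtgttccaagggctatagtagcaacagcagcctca
Slit3, chr11:35121206-35121505, plus strand: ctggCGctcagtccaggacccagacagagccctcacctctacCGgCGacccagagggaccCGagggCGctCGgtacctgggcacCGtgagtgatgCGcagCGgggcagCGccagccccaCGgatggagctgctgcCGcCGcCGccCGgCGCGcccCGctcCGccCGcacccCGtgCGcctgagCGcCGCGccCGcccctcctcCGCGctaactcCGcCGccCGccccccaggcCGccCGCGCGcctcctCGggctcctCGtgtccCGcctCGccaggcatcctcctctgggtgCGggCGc
The letters CG, which read the same on both strands, occur 26 times at Rims1, 14 times at Nlgn1, 3 times at Dgkb and 41 times at Slit3. The GC content is 69.3%, 55.7%, 46.3% and 78.3% in that order. The Nlgn1 start shown lies 957 bases inside the annotated gene start, and the Dgkb one 5 bases from it. Promoters were matched by symbol for 158 of the 201 genes, giving 247 promoters with a median of 12 CG (quartiles 6 and 24.5). All 32851 promoters of the table have a median of 7 CG (quartiles 3 and 20). At least 1 CG is held by 98.8% of the promoters of long genes and by 94.6% of all promoters. No other motif was searched.

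Libraries held 11876426 counts (B6 input) to 128348440 counts (H3.3 Cg library 1). The median member window held 198 to 1615 counts, a counting error of 2.49 to 7.11%. The labels do not say that replicates are separate animals, so p-values measure the spread between these samples only. The γH2AX libraries 1Rb_M 1 and 2 stood apart, with an X enrichment of 2.18 and 2.19 on the log2 scale. It was 2.97 in 1Rb_M 3, 2.88 to 2.99 in 3Rb, 2.85 to 2.93 in 1Rb_P and 3.16 in B6. Some results that rest on 1Rb_M, mainly levels and counts over all long genes, are therefore also given from its library 3 alone. This alternative was chosen after seeing the data. Most values of single genes, parts of genes, sets of chromosomes and lists are not given that way.

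Long gene bodies had more γH2AX and less H3.3 than the average of the autosomes. Enrichment is on the log2 scale: summed counts of a library over those of the 3 inputs together, set to 0 over the 13 autosomes in no translocation. γH2AX enrichment of the long genes was 0.17, 0.16 and 0.15 in the 3Rb libraries, 0.09, 0.11 and 0.12 in 1Rb_P, 0.05, 0.09 and 0.05 in 1Rb_M, and 0.11 in B6. Every 3Rb library was above every other library, and the 1Rb_P and 1Rb_M libraries overlapped. The group means were 0.16 ± 0.01 in 3Rb, 0.11 ± 0.02 in 1Rb_P and 0.07 ± 0.02 in 1Rb_M (SD, n = 3 each). Library 3 alone gave 0.05 for 1Rb_M. The levels depended on how windows were combined: the median window gave 0.103 in 3Rb, 0.0557 in 1Rb_P, 0.0202 in 1Rb_M and 0.0400 in B6. Without windows of unusual input they were 0.143, 0.0753, 0.0377 and 0.0624 in the same order.

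H3.3 was depleted over the same windows in every library. Its enrichment was -0.27, -0.24 and -0.24 in 3Rb, -0.25, -0.30 and -0.31 in 1Rb, and -0.31, -0.26 and -0.26 in Cg. The means were -0.25 ± 0.02 in 3Rb, -0.29 ± 0.03 in 1Rb and -0.27 ± 0.03 in Cg (SD, n = 3 each), and the 3 groups overlapped. Windows inside genes of 100 to 500 kb had an H3.3 enrichment of 0.05 to 0.06 as group means, windows with 3 or more genes 0.50 to 0.56, and windows with no gene -0.32 to -0.28. In H3.3 the longest gene bodies were thus near gene-free DNA, while in γH2AX they lay above it: gene-free windows had -0.04 to 0.04. The 3 inputs were between -0.005 and 0.005 over the long genes.

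**Figure D1:**
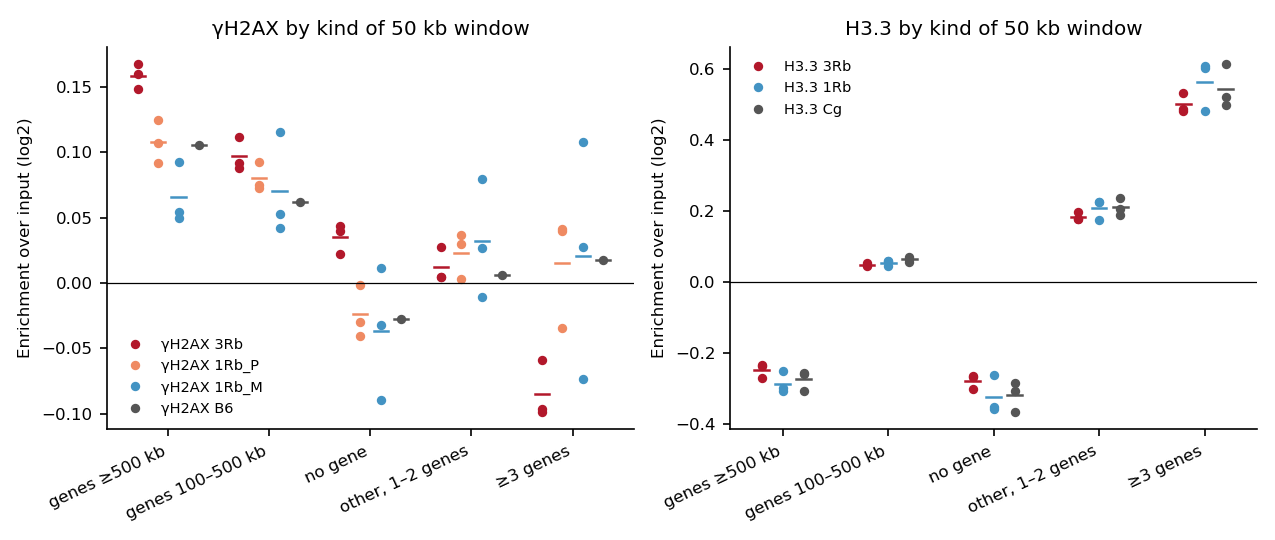
Enrichment over pooled input (log2, y axis) of γH2AX (left) and H3.3 (right) by kind of 50 kb window; points are libraries and bars group means. In windows of genes of at least 500 kb, the 3 γH2AX libraries of 3Rb lie between 0.15 and 0.17, above all other libraries, and all H3.3 libraries lie between -0.31 and -0.24.

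The γH2AX level of the long genes differed between sets of chromosomes. On 8 and 12, joined in all 3 carrier groups, it averaged 0.23 in 3Rb, 0.19 in 1Rb_P, 0.13 in 1Rb_M and 0.05 in B6. On 1, 3, 9 and 14, joined in 3Rb only, it was 0.19 in 3Rb, against 0.06 in 1Rb_P, 0.04 in 1Rb_M and 0.08 in B6. On the 13 unjoined autosomes it was 0.13 in 3Rb, 0.11 in 1Rb_P, 0.06 in 1Rb_M and 0.13 in B6. On the unjoined autosomes B6 and 3Rb thus had about the same level, and on 8 and 12 B6 was the lowest of the 4 groups. The B6 library has no replicate, and this was not tested. No level of all windows was taken for 8 and 12 or for 1, 3, 9 and 14. The differences between sets of chromosomes are therefore not read as particular to long genes.

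Within genes, γH2AX was higher toward the start than toward the end in every group, with the largest difference in 3Rb. Windows of the 158 genes with a known strand were assigned to 5 equal parts of the gene in the direction of transcription. The first, middle and last parts had 0.18, 0.16 and 0.11 in 3Rb, 0.12, 0.11 and 0.08 in 1Rb_P, 0.07, 0.06 and 0.05 in 1Rb_M, and 0.11, 0.11 and 0.09 in B6. The first part minus the last was 0.0698 ± 0.003 in 3Rb, 0.0353 ± 0.008 in 1Rb_P and 0.0278 ± 0.006 in 1Rb_M (SD, n = 3 each), and 0.0194 in B6. With the B6 input alone it was 0.0893 in 3Rb, 0.0548 in 1Rb_P, 0.0472 in 1Rb_M and 0.0389 in B6. Over genes of the unjoined autosomes it was 0.0870 in 3Rb, 0.0538 in 1Rb_P, 0.0396 in 1Rb_M and 0.0504 in B6, and the median window gave 0.0440 in B6. Both flanks lay below the adjoining part of the gene in every group, and the upstream flank was above the downstream one. The 250 kb upstream had 0.12 in 3Rb, 0.08 in 1Rb_P, 0.05 in 1Rb_M and 0.08 in B6. The 250 kb downstream had 0.10, 0.06, 0.04 and 0.05 in the same order. By distance, γH2AX in 3Rb was 0.17 within 100 kb of the gene start, 0.18 at 100 to 200 kb, 0.17 at 200 to 400 kb, 0.15 at 400 to 800 kb and 0.10 beyond 800 kb.

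H3.3 had a different shape along the gene: it was lowest in the middle, and less depleted in the flanks. The first, middle and last parts had -0.24, -0.26 and -0.22 in 3Rb, -0.28, -0.30 and -0.24 in 1Rb, and -0.27, -0.29 and -0.23 in Cg. The 250 kb upstream had -0.13 in 3Rb, -0.15 in 1Rb and -0.14 in Cg, and the 250 kb downstream -0.12, -0.14 and -0.13. Beyond 800 kb from the gene start, H3.3 enrichment was -0.30 in 3Rb, -0.35 in 1Rb and -0.34 in Cg. That last group of 413 windows comes from the longest genes only, so it compares other genes as well as another distance.

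**Figure D2:**
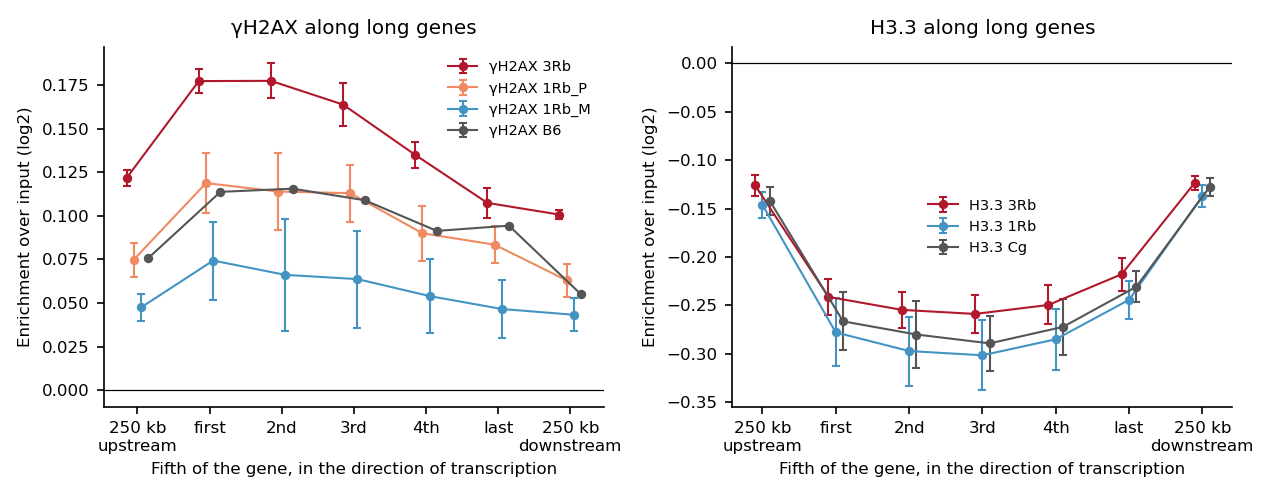
Mean enrichment over pooled input (log2, y axis) of γH2AX (left) and H3.3 (right) by equal part of the gene, 5 from start to end, and in the 250 kb on both sides; bars are the SD over 3 libraries, and B6 is 1 library. γH2AX in 3Rb is 0.18 in the first part and 0.11 in the last, and H3.3 is lowest in the middle part in all 3 groups.

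Genes differed far more from each other than the windows within a gene did. The median SD of γH2AX over the windows of a gene was 0.08 in 3Rb, 0.07 in 1Rb_P, 0.06 in 1Rb_M and 0.12 in B6. The SD between gene medians was 0.29 in 3Rb, 0.24 in 1Rb_P, 0.16 in 1Rb_M and 0.24 in B6. For H3.3 the SD within genes was 0.09 to 0.11 over the groups, and between genes 0.16 to 0.20. Within most very long genes both marks thus varied less along the body than between genes.

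γH2AX was above 0 in 132 of the 201 genes in 3Rb, 119 in 1Rb_P, 120 in 1Rb_M and 115 in B6, and gene means ran from -0.56 to 1.11 in 3Rb. The 4 highest were Lrba, Exoc4, Immp2l and Hdac9, which code for a vesicle trafficking protein, an exocyst subunit, a mitochondrial inner membrane peptidase subunit and a histone deacetylase. Immp2l had a mean enrichment of 1.11 in 3Rb, 0.80 in 1Rb_P, 0.52 in 1Rb_M and 0.45 in B6. Exoc4 had 1.02, 0.80, 0.66 and 0.81 in the same order, Lrba 1.01, 0.87, 0.76 and 0.84, and Hdac9 0.74, 0.71, 0.46 and 0.46. In Exoc4 the 1Rb_M libraries had 20.1, 20.6 and 25.8 CPM per window (reads per window after edgeR's correction for depth), so library 3 stood apart there, and likewise in Lrba with 19.9, 21.1 and 26.5 CPM. The 4 lowest were Csmd2 (-0.56 in 3Rb, -0.27 in 1Rb_P, -0.17 in 1Rb_M and -0.20 in B6), Nav2, Tmem132d and Cacna1c, genes of membrane proteins, a cytoskeletal guidance protein and an L-type calcium channel.

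H3.3 was above 0 in 22 of the 201 genes in 3Rb, 24 in 1Rb and 25 in Cg. The highest were Camta1 (0.27 in 3Rb, 0.31 in 1Rb and 0.31 in Cg), a transcription activator, Vps13b (0.23, 0.22 and 0.31), a lipid transfer protein of the Golgi, Nbea (0.23, 0.20 and 0.30), a membrane trafficking protein, and Rabgap1l (0.20, 0.17 and 0.21), a Rab GTPase-activating protein. The lowest were Skint5 (-0.35, -1.0 and -0.56), Cntnap5a (-0.51, -0.59 and -0.60), a neurexin-family adhesion molecule, Grm7 (-0.49, -0.54 and -0.54), a metabotropic glutamate receptor, and Dpp10 (-0.47, -0.54 and -0.54), a potassium channel auxiliary subunit. Across the 201 genes, the mean levels of γH2AX and H3.3 had a Pearson r of 0.12 (Spearman 0.02). Gene length had an r of -0.29 with H3.3 and 0.02 with γH2AX. These are descriptions over genes that share libraries, inputs and base composition, not independent samples.

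In 3Rb against 1Rb_M, more windows of the long genes were higher in γH2AX than lower, while over all windows the lower ones were more numerous. Of 3159 member windows tested, 814 were higher and 340 lower in 3Rb (edgeR quasi-likelihood test, adjusted p under 0.05 over 53118 windows). Of the members, 25.8% were higher and 10.8% lower, against 17.9% and 20.2% of all windows tested (38.1% in either direction) and 17.0% and 22.0% of the autosomal windows from 13 Mb on. Windows inside genes of 100 to 500 kb had 18.2% higher and 24.97% lower, windows without a gene 20.4% and 14.2%, and windows with 3 or more genes 6.40% and 47.0%. The median log2 difference of the members was 0.06, against 0.01 over all windows and 0.04 in windows without a gene. For the members it was 0.02 without 1Rb_M library 3. This split depended on the scaling: with library totals in place of TMM factors, 300 member windows were higher and 522 lower, with a median of -0.09 over all windows and -0.04 over the members. With 1Rb_M library 3 alone, 1352 were higher and 305 lower, on the assumption that the lone library varies like the other groups.

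Counted by gene, 54 of the 201 bodies were higher and 38 lower in 3Rb than in 1Rb_M. Over all 3227 gene bodies of any length tested, 23.3% were higher and 27% lower, and the median log2 difference was 0.05 for the long genes and 0.01 for all. The count of lower genes was 25 without 1Rb_M library 1 and also 25 without 3Rb library 2. With 1Rb_M library 3 alone it was 105 higher and 29 lower, and with library totals 17 higher and 47 lower.

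Against 1Rb_P, 33 long genes were higher and 16 lower in 3Rb, with 12.2% and 16.4% over all bodies, and a median of 0.03 against -0.0039 over all. By window, 415 were higher and 150 lower. Over all windows the shares were 10.1% and 12.8% (22.9% in either direction), and over the autosomal windows from 13 Mb on 9.45% and 12.7%. Of the members, 13.1% were higher and 4.75% lower, and of windows without a gene 10.1% and 6.28%. The median difference was 0.026 for the member windows and 0.020 for windows without a gene, so the small rise was not particular to long genes. The higher genes numbered 20 without 1Rb_P library 1, 19 without 1Rb_P library 2, 20 without 3Rb library 1 and 21 without 3Rb library 2. The lower ones numbered 8 without 1Rb_P library 1 and 9 without each of the 3Rb libraries in turn. This comparison and the last use the same 3Rb libraries, so their values are given side by side and are not independent.

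Most of the long genes in the part of 1, 3, 9 and 14 nearest the centromere had more γH2AX in 3Rb. Of 21 long genes there with a midpoint between 13 and 40 Mb, 15 were higher and 1 lower in 3Rb against 1Rb_M (median 0.22), and 16 higher and 0 lower against 1Rb_P (median 0.28). Of 23 genes beyond 80 Mb on these chromosomes, 6 were higher and 5 lower against 1Rb_M (median 0.04). The member windows at 13 to 40 Mb were higher in 61.4% against 1Rb_M, and all windows of that stretch in 62.7%, so members and all windows had about the same share. By chromosome against 1Rb_M, 9 of 17 genes on 1 were higher, 8 of 15 on 3, 7 of 13 on 14, and 1 of 10 on 9, where 5 were lower. Over all gene bodies, 23.3% were higher and 27% lower against 1Rb_M, and 12.2% and 16.4% against 1Rb_P. No share of all bodies was taken by chromosome, so these counts are not read as particular to long genes.

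On 8 and 12, joined in all 3 carrier groups, genes nearest the centromere also tended to be higher in 3Rb and the most distant ones lower, with fewer calls against 1Rb_P. Against 1Rb_M, 5 of 7 genes at 13 to 40 Mb were higher and 1 lower (median 0.19). Beyond 80 Mb, 0 of 8 were higher and 6 lower (median -0.19). With 1Rb_P in its place, 3 of the 7 were higher and 0 lower (median 0.12), and 0 of the 8 higher and 3 lower (median -0.08). All windows beyond 80 Mb on 8 and 12 were also more often lower, with 41.7% lower and 4.81% higher, against 51.9% and 0.741% of the members there. At 13 to 40 Mb, 57.3% of the 131 member windows were higher against 24.4% of all windows of that stretch. Against 1Rb_P the shares were 25.2% and 11.9%. On the unjoined autosomes, 18.9% of 1960 member windows were higher and 10.2% lower against 1Rb_M, where all windows had 12.5% and 24.9%.

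**Figure D3:**
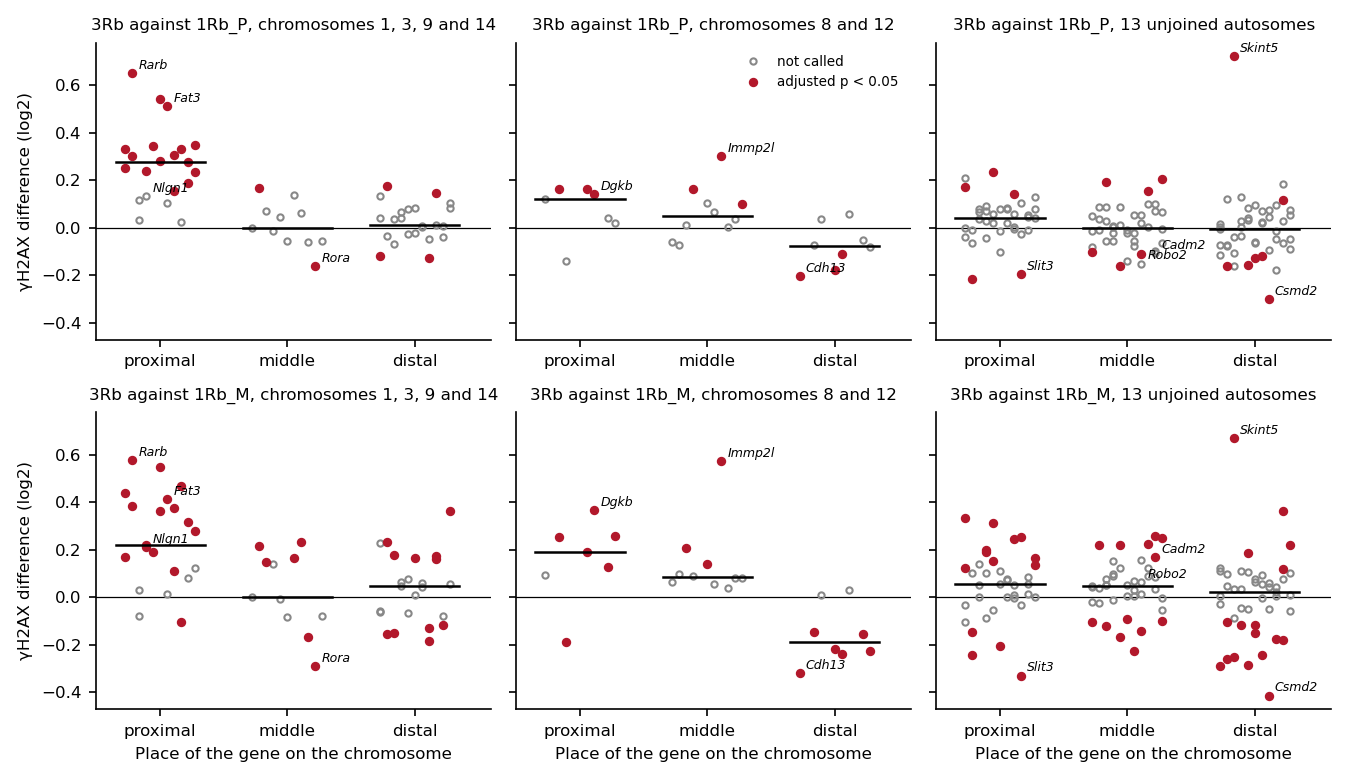
γH2AX log2 difference (y axis) of each of the 201 genes, 3Rb against 1Rb_P (top) and against 1Rb_M (bottom), by the place of the gene midpoint (proximal 13 to 40 Mb, middle 40 to 80 Mb, distal beyond 80 Mb); filled points passed edgeR's adjusted p of 0.05 and bars are medians. The 21 proximal genes of 1, 3, 9 and 14 have medians of 0.28 and 0.22, and the distal genes of 8 and 12 -0.08 and -0.19.

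Rarb, the retinoic acid receptor beta gene (chr14:16430839-17082331), had one of the largest gains. Its γH2AX was 19.1, 19.9 and 20.1 CPM per window in 3Rb, against 12.8, 12.5 and 12.4 in 1Rb_P and 13.8, 13.5 and 12.3 in 1Rb_M. The 3Rb libraries did not overlap the others. The log2 difference was 0.65 (SE 0.048, edgeR adjusted p = 1.4e-05) against 1Rb_P and 0.58 (SE 0.048, adjusted p = 3.4e-05) against 1Rb_M, and all 12 windows passed in both. In B6 the enrichment was -0.08.

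Rims1 (chr1:22285972-22806158), which codes for an active zone protein of the synapse, had 19.2, 19.4 and 19.5 CPM in 3Rb, against 15.0, 15.5 and 15.6 in 1Rb_P and 14.02, 14.4 and 13.6 in 1Rb_M. All 10 of its windows were higher in 3Rb in both comparisons, and the log2 differences were 0.33 and 0.47 against 1Rb_P and 1Rb_M (edgeR adjusted p = 0.00022 and 2.2e-05). Other long genes of that stretch of chromosome 1 changed in the same direction: Khdrbs2, an RNA-binding protein gene (chr1:32172602-32705224), by 0.30 and 0.38, and Adgrb3, an adhesion receptor gene (chr1:25067476-25834772), by 0.33 and 0.44. Fat3, a giant cadherin gene (chr9:15910189-16502681), had 16.6, 17.1 and 17.3 CPM in 3Rb, against 11.6, 11.9 and 12.2 in 1Rb_P and 13.3, 13.03 and 11.9 in 1Rb_M. Its differences were 0.51 and 0.41, with all 11 windows called in both. Ralyl (chr3:13471655-14182287), picked after its values were seen as a gene close to the centromere end of the members, had 0.54 and 0.55.

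Erc2, a presynaptic scaffold gene (chr14:27622275-28478537), had more γH2AX in 3Rb over its body, and its first window stood above the rest. It had 16.9, 17.4 and 17.4 CPM in 3Rb, against 13.5, 13.3 and 13.7 in 1Rb_P and 14.5, 14.2 and 13.9 in 1Rb_M, and log2 differences of 0.35 and 0.28 (edgeR adjusted p = 0.00016 and 0.00028). Its first window, centred 52.7 kb from the start, was 0.55 above the gene's median in 3Rb, against 0.13 in 1Rb_P, 0.19 in 1Rb_M and 0.16 in B6. H3.3 in that window was also highest in 3Rb, at 0.22 from the gene's median, against -0.01 in 1Rb and 0.05 in Cg. No input of 3Rb was used, so a different recovery of DNA from this window in 3Rb was not tested.

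Immp2l (chr12:41024061-41955588) had the highest γH2AX level of the 201 genes in 3Rb, and differed between the groups. It had 27.6, 29.2 and 27.8 CPM in 3Rb, 21.9, 23.4 and 23.3 in 1Rb_P and 18.5, 18.7 and 19.8 in 1Rb_M, so the 3 carrier groups did not overlap. The differences were 0.30 (edgeR adjusted p = 0.0025, 16 of 18 windows) against 1Rb_P and 0.57 (adjusted p = 4.2e-05, all 18 windows) against 1Rb_M.

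Dgkb, which codes for a diacylglycerol kinase (chr12:37880169-38634239), lies on the same chromosome, and its groups came in the same order. It had 20.1, 19.9 and 19.5 CPM in 3Rb, 17.2, 18.2 and 18.4 in 1Rb_P and 15.1, 15.8 and 15.3 in 1Rb_M. The log2 differences were 0.14 (SE 0.042, edgeR adjusted p = 0.028) against 1Rb_P and 0.37 (SE 0.042, adjusted p = 0.00013) against 1Rb_M, where all 14 windows passed. In B6 its enrichment was 0.39, between 1Rb_P with 0.54 and 1Rb_M with 0.30. Its H3.3 did not pass in any comparison, with 11.6, 12.04 and 12.3 CPM in 3Rb, 11.96, 11.04 and 10.9 in 1Rb and 11.02, 11.9 and 11.6 in Cg.

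Of the 38 genes with less γH2AX in 3Rb than in 1Rb_M, 23 lay on unjoined autosomes, 8 on 1, 3, 9 and 14 and 7 on 8 and 12. The 201 genes split in about the same way, with 121, 55 and 25. Gene levels spread less in 1Rb_M, with an SD between gene medians of 0.16 against 0.29 in 3Rb. By the median of their windows, the 4 genes of lowest γH2AX level were lower in 3Rb than in 1Rb_M. The 4 of highest level were higher. The level is taken from the same libraries, and whether the differences follow it was not tested. Csmd2, a large membrane protein gene (chr4:127986505-128567660), had 10.2, 9.79 and 10.1 CPM in 3Rb, against 12.7, 12.6 and 11.7 in 1Rb_P and 13.9, 12.9 and 13.2 in 1Rb_M. The groups did not overlap, and the differences were -0.30 (SE 0.044, edgeR adjusted p = 0.0011) against 1Rb_P and -0.41 (SE 0.044, adjusted p = 9.6e-05) against 1Rb_M. Slit3, a secreted axon guidance ligand (chr11:35121456-35708507), had 11.3, 11.5 and 11.7 CPM in 3Rb, against 13.3, 13.2 and 13.02 in 1Rb_P and 14.9, 14.2 and 14.4 in 1Rb_M. Its differences were -0.20 and -0.33, with 4 and all 11 of its windows lower. Cdh13, a GPI-anchored cadherin gene at the distal part of 8 (chr8:118140017-119324929), fell by 0.21 and 0.32 on the log2 scale, with 13 and all 23 of its windows lower.

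The nuclear receptor gene Rora (chr9:68653404-69388246) fell by 0.16 and 0.29 on the log2 scale, and Cacna1c (chr6:118587240-119197384) by 0.16 and 0.26. Kalrn (chr16:33969073-34573277) fell by 0.21 and 0.25, and Ptprm, a receptor phosphatase gene (chr17:66666848-67354491), by 0.16 and 0.17. In each pair the first value is against 1Rb_P and the other against 1Rb_M, and all 8 values passed edgeR's adjusted p of 0.05.

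Between the 1-translocation crosses, which differ in parental strain, few long genes passed. In 1Rb_P against 1Rb_M, 3 were higher (Dgkb, Immp2l and Pcdh9, a protocadherin gene) and 0 lower, where 0.589% and 0.186% of all bodies were. DESeq2 gave 7 higher and 0 lower, and 59 of the 201 had an unadjusted p under 0.05 in edgeR. By window, 75 were higher and 9 lower, with 1.06% and 0.299% over all windows (1.36% in either direction) and 0.997% and 0.323% over the autosomal windows from 13 Mb on. These counts depended on single libraries: without 1Rb_M library 1, or any 1Rb_P library, 0 genes were higher, while 20 were without 1Rb_M library 2 and 31 without 1Rb_M library 3. The lower genes numbered 4 without 1Rb_M library 2 and 57 without 1Rb_M library 3. Windows called in either direction numbered 84, but 5, 569 and 610 (295 higher and 315 lower) without 1Rb_M libraries 1, 2 and 3, and 45, 14 and 4 without 1Rb_P libraries 1, 2 and 3. From 1Rb_M library 3 alone, 63 genes were higher and 9 lower. With library totals, 0 genes were higher and 17 lower, and 7 windows higher and 18 lower.

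In Robo2 and Cadm2, both on chromosome 16, which is unjoined, the mean of 1Rb_P was above that of 3Rb. Robo2, an axon guidance receptor gene (chr16:73891976-75447443), had 15.5, 15.3 and 15.0 CPM in 3Rb, 16.2, 17.2 and 17.4 in 1Rb_P and 14.5, 15.6 and 13.8 in 1Rb_M. No pair of groups passed at the gene: -0.15 (SE 0.058, edgeR adjusted p = 0.077) for 3Rb against 1Rb_P, 0.06 (adjusted p = 0.38) for 3Rb against 1Rb_M and 0.21 (adjusted p = 0.088) for 1Rb_P against 1Rb_M. Of its 30 windows, 14 were lower in 3Rb than in 1Rb_P and 13 higher in 1Rb_P than in 1Rb_M. Its enrichment in B6 was 0.53, above 0.30 in 3Rb, 0.44 in 1Rb_P and 0.21 in 1Rb_M. From 1Rb_M library 3 alone, its differences passed, with 0.15 for 3Rb and 0.30 for 1Rb_P against 1Rb_M.

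Cadm2, a synaptic cell adhesion gene (chr16:66655416-67620917), had 17.6, 17.0 and 16.5 CPM in 3Rb, 17.4, 18.8 and 18.9 in 1Rb_P and 14.9, 16.3 and 14.2 in 1Rb_M. 3Rb and 1Rb_P overlapped, and both lay above 1Rb_M. The difference of 3Rb against 1Rb_M was 0.17 (SE 0.060, edgeR adjusted p = 0.038) and was lost with library totals (0.07), without 1Rb_M library 1 and without each 3Rb library. B6 had an enrichment of 0.69, against 0.50 in 3Rb, 0.60 in 1Rb_P and 0.31 in 1Rb_M. Its H3.3 enrichment was -0.35 in 3Rb, -0.43 in 1Rb and -0.43 in Cg, and no difference passed.

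Nlgn1, a postsynaptic adhesion gene (chr3:25421808-26332866), had more γH2AX in 3Rb in most of its windows and much less in 1 window. Its γH2AX was 16.5, 16.3 and 16.3 CPM in 3Rb, against 14.7, 14.7 and 15.4 in 1Rb_P and 14.1, 14.9 and 13.5 in 1Rb_M. The difference was 0.13 (SE 0.045, edgeR adjusted p = 0.052) against 1Rb_P and 0.21 (SE 0.045, adjusted p = 0.0039) against 1Rb_M. Of 17 windows, 15 were higher in both comparisons, 2 were lower against 1Rb_P and 1 against 1Rb_M. Scaled by library totals, its difference against 1Rb_M was 0.11 and did not pass.

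The window with much less is chr3:25500001-25550000, centred 808 kb from the start of Nlgn1 and beginning 78.2 kb from its end. It had 12.003, 12.1 and 11.9 CPM of γH2AX in 3Rb, against 27.8, 26.1 and 26.2 in 1Rb_P and 21.1, 22.6 and 26.3 in 1Rb_M. Its enrichment was -0.04 ± 0.02 in 3Rb, 1.11 ± 0.06 in 1Rb_P and 0.90 ± 0.19 in 1Rb_M (SD, n = 3 each), and 1.70 in B6 from 803 counts. The window was 1.45 above the median of the gene in B6, and 0.45 below it in 3Rb. The log2 difference was -1.15 (SE 0.080, edgeR adjusted p = 2.2e-12) against 1Rb_P and -0.96 (SE 0.080, adjusted p = 1.0e-10) against 1Rb_M.

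H3.3 moved the same way in that window. It had 7.52, 8.65 and 8.497 CPM in 3Rb, against 13.9, 14.05 and 14.9 in 1Rb and 14.4, 16.4 and 15.6 in Cg. The differences were -0.80 (SE 0.064, edgeR adjusted p = 4.8e-13) against 1Rb and -0.89 (SE 0.062, adjusted p = 6.0e-15) against Cg. The inputs of 1Rb_M, Cg and B6 had 822, 717 and 171 counts there. No input of 3Rb was used, so a lower recovery of DNA from this window in 3Rb was not tested. The neighbouring window toward the gene start was 0.06 below the median of the gene in 3Rb, and 0.35 above it in 1Rb_P, 0.36 in 1Rb_M and 0.66 in B6. Over the other 16 windows, γH2AX enrichment was 0.27 to 0.54 in 3Rb, 0.05 to 0.51 in 1Rb_P, -0.01 to 0.43 in 1Rb_M and -0.04 to 0.91 in B6.

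**Figure D4:**
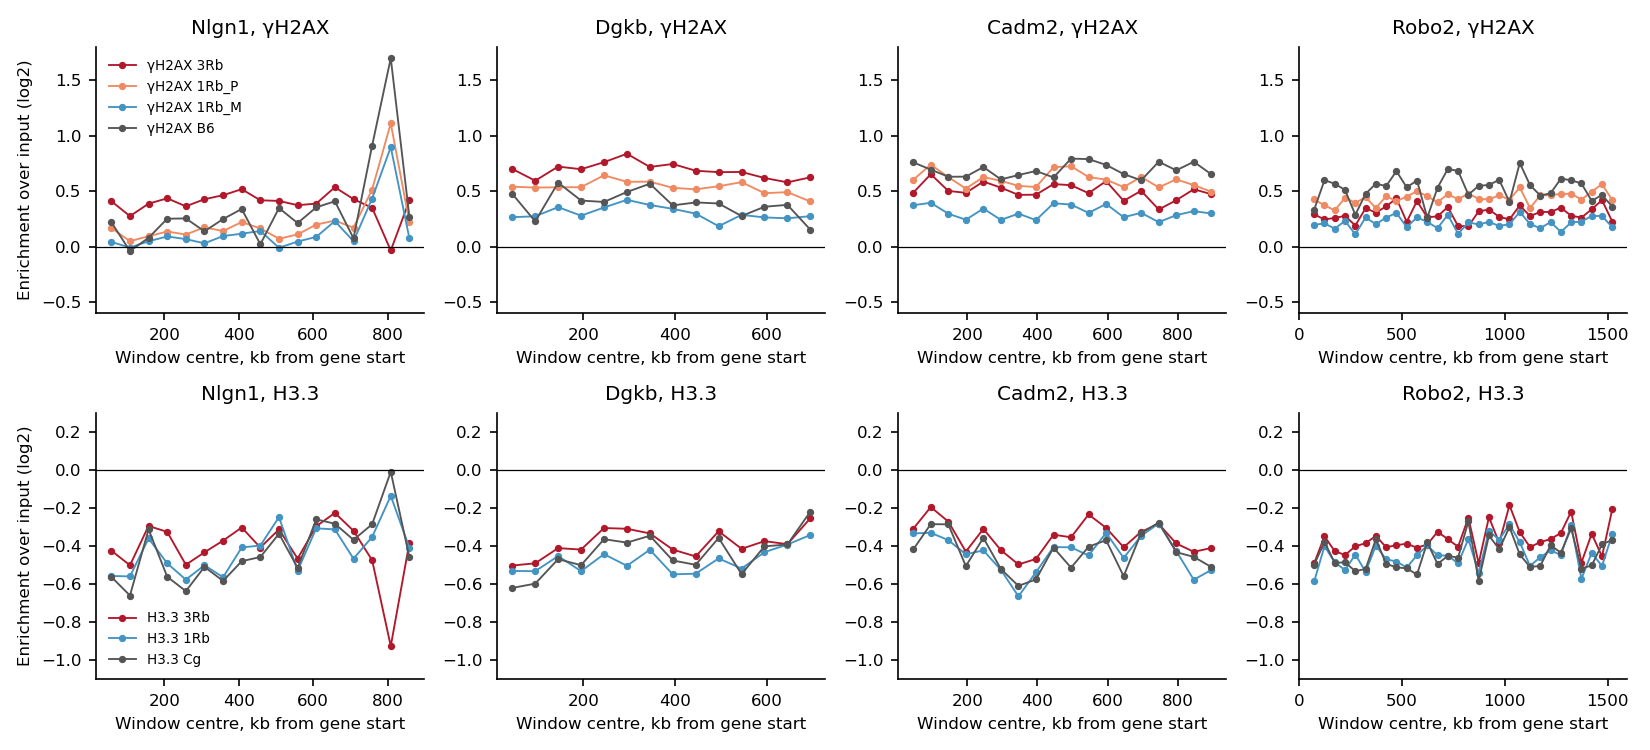
Enrichment over pooled input (log2, y axis) of γH2AX (top) and H3.3 (bottom) in each 50 kb window of 4 genes, by the distance of the window centre from the gene start (kb, x axis); points are group means, and B6 is 1 library. In Nlgn1 the window at 808 kb is 1.70 in B6, 1.11 in 1Rb_P and 0.90 in 1Rb_M, against -0.04 in 3Rb, and H3.3 in 3Rb is -0.93 there; Dgkb, Cadm2 and Robo2 have no such window.

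Such windows were rare. Of 3201 pairs of a gene and a window, 31 in 19 genes lay more than 0.5 (log2) from the median of their gene in at least 1 group, 6 of them in γH2AX only, 24 in H3.3 only and 1, that of Nlgn1, in both. The following were picked after their values were seen. In Cntnap2, a neurexin-family gene, 5 windows about 2 Mb from the start had more H3.3 than the rest of the gene. The window centred at 2065 kb was 0.25 above the gene median in 3Rb, 0.45 in 1Rb and 0.88 in Cg. In Pde1c, a cyclic nucleotide phosphodiesterase gene, the window at 128 kb was 0.54 below the gene median in 3Rb, 0.49 in 1Rb and 0.71 in Cg. In Agbl4, a carboxypeptidase gene, the γH2AX of the window at 1227 kb was 0.60 below in 3Rb, 0.45 in 1Rb_P, 0.27 in 1Rb_M and 0.46 in B6.

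Few long genes passed in H3.3. In 3Rb against Cg, 2 genes were higher (Rarb and Ryr3) and 1 lower (Sox6), with 0.589% and 0.93% over all bodies. The median difference was 0.04 for the long genes and -0.02 over all. By window, 81 were higher and 28 lower, with 3.34% and 6.16% over all windows (9.51% in either direction). Over the autosomal windows from 13 Mb on the shares were 2.54% and 1.82%, against 2.56% and 0.886% of the members, so the higher share was about the same. Of windows without a gene, 3.41% were higher and 1.51% lower. Their median difference was 0.051, against 0.046 for the member windows, so the small rise was not particular to long genes. The window counts were 149 higher and 23 lower with library totals, and 35 higher and 42 lower without Cg library 1, where the median of the members was 0.02 in place of 0.05. Single libraries moved these counts: 4 genes were higher without 3Rb library 1 and 1 without 3Rb library 2, 3Rb library 3 or Cg library 3, and 3 were lower without Cg library 1. Windows called in either direction fell to 38 and 46 without 3Rb libraries 2 and 3, against 109.

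In 1Rb against Cg, 0 long genes were higher and 2 lower (Sox6 and Skint5), with 0.093% and 0.589% over all bodies. DESeq2 gave the same counts, and 16 of the 201 had an unadjusted p under 0.05 in edgeR. Without Cg library 1, 4 genes were lower. In 3Rb against 1Rb, 2 were higher (Skint5 and Rarb) and 0 lower, with 0.496% and 0.155% over all bodies, and 32 had an unadjusted p under 0.05. DESeq2 gave 2 higher and 0 lower. There was 1 higher gene when any one of 1Rb libraries 2 and 3 or of the 3Rb libraries was left out. By window, 8 were higher and 26 lower in 1Rb against Cg (1.08% and 2.62% over all windows, 3.71% in either direction, and 0.667% and 1.10% over autosomal windows from 13 Mb on), and 35 higher and 9 lower in 3Rb against 1Rb (2.08% and 4.02%, 6.1% in either direction, and 1.30% and 1.04%, against 1.11% and 0.285% of the members). In 3Rb against 1Rb, windows without a gene had a median difference of 0.0414, against 0.0421 for the member windows. Without Cg library 1, 74 windows were called in 1Rb against Cg, against 19 to 22 without each of 1Rb libraries 2 and 3 and Cg libraries 2 and 3. Without 1Rb library 1, 160 were called in 3Rb against 1Rb, against 21 to 26 without each of 1Rb libraries 2 and 3 and 3Rb libraries 2 and 3.

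Sox6, which codes for a transcription factor of the SoxD family (chr7:115470872-116040776), had the clearest H3.3 difference between the carriers and Cg. It had 17.0, 17.2 and 17.0 CPM in 3Rb and 17.2, 16.8 and 16.4 in 1Rb, against 18.9, 19.9 and 19.96 in Cg. Both carrier groups lay below Cg without overlap, by -0.20 (SE 0.029, edgeR adjusted p = 0.0019) for 3Rb and -0.22 (SE 0.029, adjusted p = 0.00095) for 1Rb, with 9 and 8 of 10 windows lower. Its γH2AX did not pass, with 0.08 and 0.09 for 3Rb against 1Rb_M and 1Rb_P, and the inputs had 17.3 to 17.5 CPM. Both carrier groups also differ from Cg in parental strain, and the effects of strain and of translocation cannot be told apart here.

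Rarb gained H3.3 as well as γH2AX in 3Rb. H3.3 was 14.2, 14.2 and 14.2 CPM in 3Rb, against 13.1, 12.9 and 12.4 in 1Rb and 12.5, 12.6 and 12.7 in Cg. The differences were 0.15 (SE 0.026, edgeR adjusted p = 0.01) against 1Rb and 0.17 (SE 0.026, adjusted p = 0.0025) against Cg. Ryr3, an intracellular calcium channel gene (chr2:112631354-113217405), had 13.3, 13.7 and 13.95 CPM in 3Rb, against 12.4, 12.8 and 12.4 in Cg, a difference of 0.12 (SE 0.027, adjusted p = 0.038).

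Skint5, of a family of related immunoglobulin-like genes on chromosome 4 (chr4:113477891-113999503), changed most in both marks, and its inputs also differed. γH2AX was 12.8, 12.3 and 12.5 CPM in 3Rb, against 7.46, 7.31 and 7.98 in 1Rb_P and 7.996, 8.59 and 7.01 in 1Rb_M. H3.3 was 9.70, 10.1 and 10.4 CPM in 3Rb, against 7.04, 6.28 and 6.06 in 1Rb and 8.06, 9.37 and 8.57 in Cg. The γH2AX difference was 0.72 against 1Rb_P and 0.67 against 1Rb_M. The H3.3 difference was 0.64 for 3Rb against 1Rb and -0.42 for 1Rb against Cg (edgeR adjusted p = 8.7e-06 and 0.0013). The inputs had 10.2 CPM per window in 1Rb_M, against 15.8 in Cg and 14.3 in B6, a ratio of highest to lowest of 1.54, the largest of the 201 genes, with Camta1 next at 1.17. How reads that also match its paralogs were treated is not given, and the part of the input in the result was not tested.

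**Figure D5:**
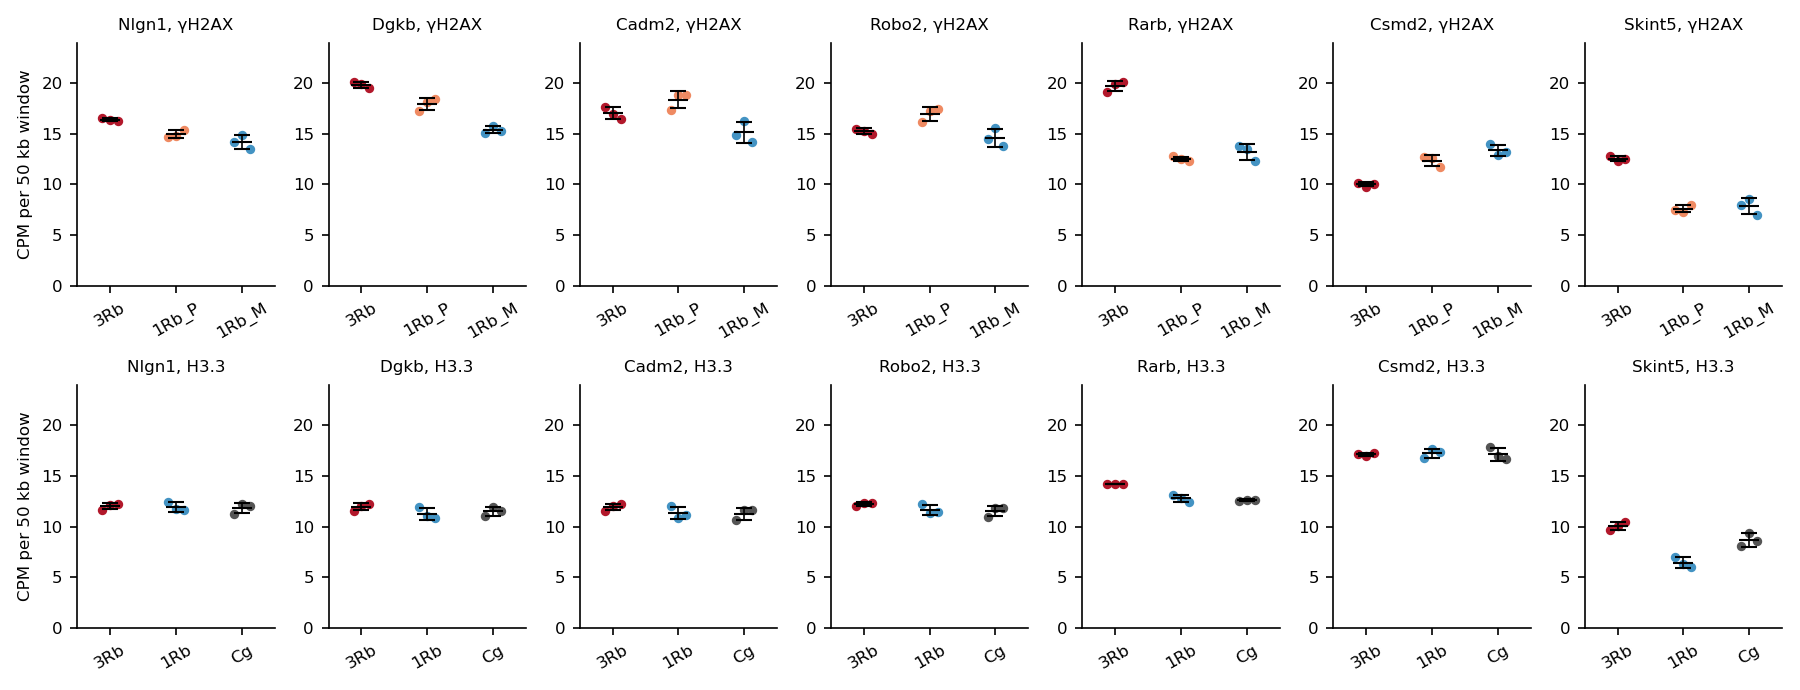
CPM per 50 kb window (y axis) of γH2AX (top) and H3.3 (bottom) in 7 genes; points are libraries, and bars the mean and SD of 3. Rarb γH2AX lies between 19.1 and 20.1 in 3Rb, above all other libraries, and Csmd2 between 9.79 and 10.2, below them; Skint5 differs between groups in both marks.

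Whether γH2AX changed beyond H3.3 was asked in a fit of both marks in 3Rb and the 1Rb_M cross. The γH2AX difference exceeded that of H3.3 in 36 long genes and fell short of it in 22, with 13% and 12.8% over all bodies (edgeR, adjusted p under 0.05), and the medians were 0.01 and 0.02. The marks were measured at 4 and 6 weeks, so age and mark cannot be told apart. On 1, 3, 9 and 14 the counts were 21 and 3 of 55 genes, on 8 and 12 4 and 4 of 25, and on unjoined autosomes 11 and 15 of 121. With library totals the counts were 7 and 45, and from 1Rb_M library 3 alone 39 and 45. Without 1Rb_M library 1, 19 exceeded, as did 19 and 21 without 3Rb libraries 1 and 2, and 34 and 42 fell short without 1Rb_M libraries 2 and 3. The difference of differences was 0.40 (SE 0.040, adjusted p = 8.4e-05) for Rims1, 0.52 for Immp2l and -0.40 for Csmd2, but 0.04 (SE 0.085, adjusted p = 0.75) for Skint5.

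The long genes were also described by what they code for, with 6 lists. Their counts stand beside 26.9% higher and 18.9% lower of the 201 genes against 1Rb_M, and 16.4% and 7.96% against 1Rb_P, with the shares of all bodies given above. Of 44 adhesion and axon guidance genes, 7 had more γH2AX and 7 less in 3Rb than in 1Rb_M; against 1Rb_P, 2 had more and 5 less. Adgrb3 rose and Slit3 and Cdh13 fell in both comparisons, and Pcdh9 rose by 0.36 against 1Rb_M, with 0.08 and no call against 1Rb_P. Of 28 ion channel, receptor and synaptic scaffold genes, 8 were higher and 4 lower in 3Rb than in 1Rb_M, and in the comparison with 1Rb_P 5 were higher and 1 lower. They include Rims1, Erc2 and the potassium channel gene Kcnq5, which was higher by 0.36 in the first comparison and 0.28 in the other, and Cacna1c, which was lower. Of 26 genes of enzymes and signalling proteins, 9 were higher and 6 lower in 3Rb than in 1Rb_M, and with 1Rb_P in its place 7 were higher and 2 lower, with Immp2l and Dgkb among the higher and the Rac activator gene Dock1 at -0.24 against 1Rb_M.

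Of 18 genes of transcription factors and RNA-binding proteins, 6 were higher and 7 lower in 3Rb than in 1Rb_M, and 4 and 3 in the comparison with 1Rb_P. Rarb and Khdrbs2 were higher, Rora lower, and the homeobox gene Zfhx3 lower, with -0.22 against 1Rb_M and -0.18 against 1Rb_P. This list differed in H3.3 level: its median enrichment was -0.04, against -0.32 over the 201 genes and -0.39 for the adhesion genes. Of 16 cytoskeletal and large membrane protein genes, 4 were higher and 5 lower in 3Rb than in 1Rb_M, and 1 and 2 in the comparison with 1Rb_P, with Csmd2, Tmem132d (-0.29), Pard3 (-0.23) and Nav2 (-0.23) lower. Of 21 genes of fragile sites or replication stress breaks, 5 were higher and 2 lower in 3Rb than in 1Rb_M, and 2 and 0 in the comparison with 1Rb_P. Their median γH2AX enrichment was 0.08, against 0.07 over the 201 genes, and their median difference 0.08 against 1Rb_M, against 0.05. Both values of the fragile site genes were near those of the long genes as a whole.

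Genes with less H3.3 tended to have the larger γH2AX differences. Over the 201 genes the difference of 3Rb against 1Rb_M had an r of -0.34 (Spearman -0.33) with the mean H3.3 level, and the difference against 1Rb_P -0.27 (Spearman -0.24). Over the 121 genes on unjoined autosomes the r was -0.37 (Spearman -0.34) against 1Rb_M and -0.26 (Spearman -0.16) against 1Rb_P. The genes share libraries, scaling and base composition, and this is a description only.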

How the data were processed

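ChIP-seq of γH2AX (10 libraries) and H3.3 (9 libraries) and 3 inputs was available as counts of reads per 50 kb window of mm10. These counts were deposited by the authors, 1 table per library. CASAVA 1.8, BWA and mm10 are named, per the submitters' processing notes. Mapping settings and the treatment of duplicate or multiply mapping reads are not given in the sources used here. Samples were grouped by title. For the 1Rb_M input the title and the strain label disagree, since the strain given is that of 1Rb_P.

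Genes came from the RefSeq table of GRCm38.p6, which gives a strand for 158 of the 201 members (missing for 43). Of the member windows, 26 lie in more than 1 member gene, and 81 overlap another gene. Counts were summed over the windows wholly inside each gene. One model per mark covered its 3 groups with replicates (9 libraries), in edgeR 4.0.16 and R 4.3.3 (TMM factors from all windows, mean count of at least 10, quasi-likelihood test, Benjamini-Hochberg over 3227 gene bodies or over all windows). CPM is the count scaled by edgeR, as a mean per window of a gene. The median window alternative added a pseudocount of 0.5 to the counts in the log2 ratio to the inputs. Distances of a window from the median of its gene used 0.5 as the lowest count. Other enrichment values, of single windows and of sums, had no pseudocount. B6 was described without a test.

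Named genes were the 4 examples, up to 5 genes per comparison and direction with the smallest adjusted p among those whose libraries do not overlap, the 4 highest and 4 lowest per mark, and up to 4 per gene list. Members and lists were chosen with earlier results of these data known. Alternatives were DESeq2 1.42.0, its size factors, library totals, no filter, a replicate block, other inputs and each library left out. Counting error is from counts alone, since reads without molecular identifiers are not independent molecules. The replicate numbers were not taken as pairs: correlations of same-numbered libraries ran from -0.66 to 0.21.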

Additional observations from a re-analysis of the deposited data

Results flagged for a closer look

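Listed here are only the example genes and the genes picked by their γH2AX difference of 3Rb against 1Rb_M. In 11 of these, that difference differed from the H3.3 difference by edgeR's test of the interaction of mark and group. The other named genes are not listed, so 11 is not a count over all named genes. The log2 γH2AX difference minus the log2 H3.3 difference was 0.52 in Immp2l, 0.43 in Rarb, 0.40 in Rims1, 0.36 in Khdrbs2, 0.29 in Dgkb and 0.21 in Nlgn1. It was -0.40 in Csmd2, -0.30 in Slit3, -0.28 in Cdh13, -0.26 in Rora and -0.21 in Cacna1c. Apart from Nlgn1 and Dgkb, these genes were picked by the γH2AX difference that the interaction uses again, so the result is partly set by the choice. Over all gene bodies, the γH2AX difference exceeded that of H3.3 in 13% and fell short of it in 12.8%. The marks were measured at different ages, so age and mark cannot be told apart.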

How the results depend on the processing

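Counts of gene bodies and windows past the threshold depended on the scaling, the tool and single libraries, in γH2AX above all in 1Rb_P against 1Rb_M. Scaling by library totals instead of TMM left 17 genes higher in 3Rb than in 1Rb_M (54 with TMM), and 16 higher and 8 lower in 3Rb than in 1Rb_P (33 and 16). For 1Rb_P against 1Rb_M library totals gave 0 higher and 17 lower genes (3 and 0) and 25 windows (84). They gave 172 windows for H3.3 of 3Rb against Cg (109), and 7 genes whose γH2AX difference exceeded that of H3.3 and 45 where it fell short (36 and 22). DESeq2 called 658 windows for γH2AX of 3Rb against 1Rb_M (1154), 277 against 1Rb_P (565) and 37 for 1Rb_P against 1Rb_M, where it called 7 higher genes. In H3.3 it called 63 windows for 3Rb against Cg, 19 for 1Rb against Cg (34) and 28 for 3Rb against 1Rb (44). DESeq2's size factors in edgeR left 1 higher gene in 1Rb_P against 1Rb_M, and leaving out windows of unusual input left 0. The filter on low counts moved no count by over 1.5 times.

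The alternative chosen after seeing the data, 1Rb_M from its library 3 alone, gave 105 higher genes in 3Rb, 63 higher and 9 lower genes and 791 windows in 1Rb_P, and 45 genes in which γH2AX fell short of H3.3. The lone library was assumed to vary like the other groups.

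Same-numbered libraries did not deviate together, and the number is not a pairing in the labels. With the replicate number as a block, 0 genes were higher and 52 windows called in 1Rb_P against 1Rb_M. In H3.3, 1 gene was higher in 3Rb against Cg and 1 against 1Rb, and 64 windows were called against Cg. In the fit of both marks 21 genes exceeded and 11 fell short. The block left 48 higher and 30 lower genes for γH2AX of 3Rb against 1Rb_M, and 23 and 11 against 1Rb_P.

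When each library was left out in turn, γH2AX of 3Rb against 1Rb_M had 41 to 72 higher and 25 to 53 lower genes and 841 to 1467 windows. Against 1Rb_P, 3Rb had 19 to 27 higher and 8 to 12 lower genes and 353 to 487 windows. For 1Rb_P against 1Rb_M there were 0 to 31 higher and 0 to 57 lower genes and 4 to 610 windows. H3.3 of 3Rb against Cg had 1 to 4 higher and 1 to 3 lower genes and 38 to 131 windows. H3.3 of 1Rb against Cg had 0 higher and 2 to 4 lower genes and 19 to 74 windows, and 3Rb against 1Rb had 1 to 3 higher and 0 lower genes and 21 to 160 windows. The fit of both marks had 19 to 50 and 17 to 42 genes. γH2AX enrichment ranged over 0.154 to 0.164 in 3Rb, 0.0997 to 0.116 in 1Rb_P and 0.0521 to 0.0737 in 1Rb_M. H3.3 enrichment ranged over -0.254 to -0.237 in 3Rb, -0.305 to -0.276 in 1Rb and -0.283 to -0.259 in Cg. The first part of the gene minus the last ranged over 0.0684 to 0.0714 in 3Rb, 0.0329 to 0.0399 in 1Rb_P and 0.0244 to 0.0307 in 1Rb_M for γH2AX. For H3.3 it ranged over -0.0240 to -0.0229 in 3Rb, -0.0427 to -0.0282 in 1Rb and -0.0403 to -0.0277 in Cg.

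The sign of every enrichment was the same under every alternative tried, and the level moved. The median window in place of the sum gave γH2AX of 0.103 in 3Rb, 0.0557 in 1Rb_P, 0.0202 in 1Rb_M and 0.0400 in B6, and H3.3 of -0.166 in 3Rb, -0.209 in 1Rb and -0.202 in Cg. Without windows of unusual input γH2AX was 0.143 in 3Rb, 0.0753 in 1Rb_P, 0.0377 in 1Rb_M and 0.0624 in B6, and H3.3 was -0.271 in 3Rb and -0.303 in Cg. Over genes of unjoined autosomes alone γH2AX was 0.127 in 3Rb and 0.127 in B6. B6 had 0.109, 0.101 and 0.111 over the 1Rb_M, Cg and B6 inputs alone.

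The B6 input alone gave a first part of the gene minus the last of 0.0893 in 3Rb, 0.0548 in 1Rb_P, 0.0472 in 1Rb_M and 0.0389 in B6 for γH2AX, and -0.00387 in 3Rb, -0.0141 in 1Rb and -0.0162 in Cg for H3.3. The median window gave 0.0450 in 1Rb_P and 0.0440 in B6, and for H3.3 -0.0301 in 3Rb and -0.0533 in Cg. Genes of unjoined autosomes gave 0.0870 in 3Rb, 0.0538 in 1Rb_P, 0.0396 in 1Rb_M and 0.0504 in B6, and -0.0173 for H3.3 in 3Rb. The 1Rb_M and Cg inputs alone gave -0.0260 and -0.0255 for H3.3 in 3Rb.

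Of 656 values of named genes under the alternatives, over 53 pairs of a gene and a comparison, 594 stayed on their side of the threshold, 48 lost the call and 14 gained it. A change of sign was counted only where either fit passed, and there were 0. Differences that passed in neither fit could change sign. For Nlgn1, H3.3 of 3Rb against Cg ran from -0.02 to 0.05 with each library left out. The cause of these shifts was not tested. The counting error of single windows is 2.49 to 7.11%, the inputs come from 1Rb_M, Cg and B6 with 1 library each, and B6 has 1 γH2AX library, which limits what can be said of single windows and of B6. The resolution is 50 kb.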
